A study of Mus musculus with 9 samples.

Results

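Cyclins and cyclin-dependent kinases (CDKs) were followed in testis RNA from 8-week-old ICR mice, an outbred stock. The genes were chosen by name alone: a symbol made of Ccn, a letter and a digit, or of Cdk and digits only. This matched 36 of the 19991 genes in the count table, 18 of the cyclin form and 18 CDKs, and all 36 passed the filter on low counts. Of the 18 Ccn rows, 16 are cyclins. Ccnb1-ps is a pseudogene of Ccnb1, with which it can share reads, and Ccnb1ip1 is a crossover factor of meiosis whose symbol only begins like that of a cyclin. Cyclins whose symbols carry no digit, such as Ccnk and Ccny, fall outside the pattern and are given as partners. Mice had been injected with PBS (Control), with 1 µM AZ82 or with 50 µM CW069, 3 libraries each; both compounds inhibit KIFC1, a motor protein of the spindle. Nothing in the labels says whether the libraries of a group came from separate animals, so the p-values measure the spread between libraries, which may be technical. The time after injection is not stated, and the inhibitor doses differ.

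The CDKs of the cell cycle are inactive without a cyclin, and cells move through division by making and destroying cyclins in turn. D cyclins with Cdk4 or Cdk6 open the cycle, E and A cyclins with Cdk2 drive DNA replication, and A and B cyclins with Cdk1 drive division. Other pairs act outside the cycle, on RNA polymerase II, on splicing, or on cell shape and cilia. The testis runs mitosis in spermatogonia and meiosis in spermatocytes, and then remodels haploid spermatids that no longer divide, so its RNA mixes the cyclins of all these stages.

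Libraries held 13856070 to 18102593 counts. The members together took 0.160% to 0.179% of each library, and single members had 17 to 3234 counts per library. All genes of the 12 germ cell, somatic and blood marker lists had counts in at least 1 library. Control 3 stood apart. Its 13 elongating spermatid markers summed to 9665 CPM (a gene's counts scaled to a common library size after TMM normalisation), against 20432 and 22813 CPM in Control 2 and Control 1, 21006 to 24898 CPM after AZ82 and 17297 to 19931 CPM after CW069. All 13 were lower there than in Control 1 and 2, as were 4 of 5 red blood cell markers. A bulk library cannot tell fewer cells of a type from less RNA per cell, here or in any result that follows.

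Levels of different genes were compared per kb of exon, with the exons of all annotated transcripts of a gene joined. The transcripts present in testis were not determined. A gene with long joined exons, such as Cdk13 (12.8 kb) or Cdk6 (11.5 kb), is placed too low if testis uses a shorter form. Ccna1, the cyclin A needed for the meiotic divisions of male germ cells, ranked first at 86.7 ± 13.1 CPM per kb in Control (SD, n = 3). Ccnb2 ranked second at 84.6 ± 5.67 CPM per kb. Their ranges over the 9 libraries overlapped, at 76.5 to 110 CPM per kb for Ccna1 and 78.4 to 89.5 CPM per kb for Ccnb2. Every library of Ccnb2 lay above every library of the third member, Cdk16, at 28.2 to 50.6 CPM per kb. Below Cdk16 the order was graded, and in the whole order of 36 only 3 of 35 neighbouring pairs had ranges that did not overlap. The G1 kinase Cdk6 lay near the bottom at 1.31 ± 0.179 CPM per kb in Control, rank 35, and the pseudogene Ccnb1-ps was last.

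**Figure D1:**
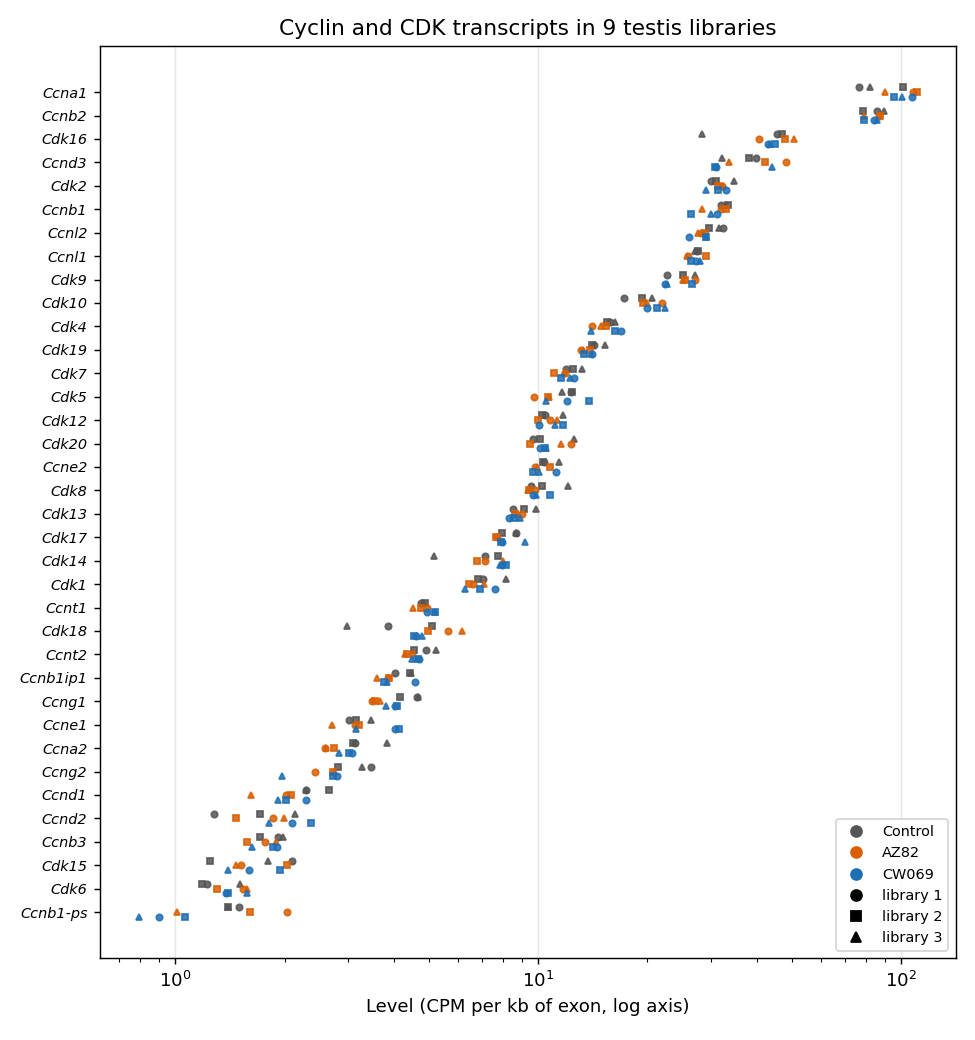
Level of each of the 36 members in CPM per kb of exon (log axis), members ordered by their mean over 9 libraries, with colour for the group and marker shape for the library number. Ccna1 and Ccnb2 stand above all others, and the Control 3 points of Cdk16, Cdk14 and Cdk18 lie to the left of the other libraries.

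Among the A and B cyclins, the meiotic form was far more abundant than the mitotic one. Ccna1 stood at 140, 186 and 150 CPM in Control 1 to 3, 197, 202 and 165 CPM in AZ82 1 to 3, and 196, 175 and 184 CPM in CW069 1 to 3. The groups overlapped, since Control 2 lay within the treated range. Ccna2, the cyclin A of dividing somatic and early germ cells, was at 3.34 ± 0.423 CPM per kb in Control against 86.7 ± 13.1 CPM per kb for Ccna1. Ccnb2, a partner of Cdk1, was at 131, 120 and 137 CPM in Control 1 to 3, 133, 133 and 121 CPM in AZ82 1 to 3, and 129, 121 and 132 CPM in CW069 1 to 3. It varied little, 1.14-fold from its lowest to its highest library. Ccnb1, the other main partner of Cdk1, ran from 65.8 to 83.1 CPM over the 9 libraries, and Ccnb3, a cyclin of early meiotic prophase, from 7.21 to 9.05 CPM. Ccnb1-ps had only 17 to 36 counts per library. Its levels were 1.93, 1.80 and 1.80 CPM in Control 1 to 3, 2.62, 2.07 and 1.30 CPM in AZ82 1 to 3, and 1.16, 1.37 and 1.02 CPM in CW069 1 to 3. Ccnb1ip1, known as HEI10, was at 6.07, 6.67 and 6.72 CPM in Control, 5.82, 5.86 and 5.41 CPM in AZ82 and 6.92, 5.68 and 5.79 CPM in CW069 libraries 1 to 3.

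Of the D cyclins, which activate Cdk4 and Cdk6, Ccnd3 was the abundant form. It was at 97.5, 93.0 and 78.4 CPM in Control 1 to 3, 118, 103 and 82.2 CPM in AZ82 1 to 3, and 75.4, 75.1 and 108 CPM in CW069 1 to 3. Each group spanned a wide part of the range, so the groups overlapped throughout. Ccnd2 was the most variable D cyclin, 8.56 to 15.9 CPM with its lowest value in Control 1 and its highest in CW069 2. Ccnd1 was at 8.56, 9.95 and 8.58 CPM in Control 1 to 3, 7.57, 7.78 and 6.06 CPM in AZ82 1 to 3, and 8.56, 7.53 and 7.16 CPM in CW069 1 to 3. All AZ82 libraries lay below all Control libraries for this gene. Of the E cyclins, partners of Cdk2, Ccne2 was at 33.2, 33.1 and 36.4 CPM in Control, 31.4, 34.6 and 31.8 CPM in AZ82 and 35.8, 31.0 and 32.2 CPM in CW069 libraries 1 to 3. Ccne1 was at 6.01, 6.29 and 6.92 CPM in Control, 6.26, 6.43 and 5.41 CPM in AZ82 and 8.08, 8.28 and 6.30 CPM in CW069 libraries 1 to 3. Per kb, Ccne2 exceeded Ccne1 in Control, 10.7 ± 0.599 against 3.20 ± 0.233 CPM per kb.

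The G cyclins act outside the core cycle, and Ccng1 is a transcriptional target of p53. Ccng1 was at 16.3, 14.6 and 16.4 CPM in Control 1 to 3, 12.2, 12.5 and 12.8 CPM in AZ82 1 to 3, and 14.2, 14.4 and 13.4 CPM in CW069 1 to 3. The 3 groups did not overlap: every AZ82 library was below every CW069 library, which was below every Control library. The margin to Control was narrow, with CW069 2 at 14.4 CPM and Control 2 at 14.6 CPM. Ccng2, linked to cell cycle arrest, was at 10.8, 8.73 and 10.2 CPM in Control, 7.57, 8.50 and 8.51 CPM in AZ82 and 8.70, 8.49 and 6.13 CPM in CW069 libraries 1 to 3. All 6 treated libraries lay below the Control libraries, the closest pair being CW069 1 at 8.70 CPM and Control 2 at 8.73 CPM.

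Cyclins L and T serve splicing and transcription; Ccnt1 and Ccnt2 join Cdk9 to release paused RNA polymerase II. Ccnl2 was at 78.7, 72.1 and 77.0 CPM in Control 1 to 3, 68.8, 70.5 and 67.4 CPM in AZ82 1 to 3, and 63.7, 70.8 and 71.0 CPM in CW069 1 to 3, with all treated libraries below Control. Its relative Ccnl1 overlapped between groups, at 59.5, 59.8 and 58.5 CPM in Control, 56.2, 62.9 and 55.7 CPM in AZ82 and 58.9, 57.2 and 60.7 CPM in CW069 libraries 1 to 3. Ccnt2 was at 33.1, 30.7 and 35.3 CPM in Control, 30.3, 29.3 and 29.0 CPM in AZ82 and 31.6, 31.5 and 30.2 CPM in CW069 libraries 1 to 3. Ccnt1 ranged from 33.4 to 38.4 CPM over the 9 libraries.

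Among the kinases of the cell cycle, Cdk2, which germ cells need to complete meiosis, was the most abundant. It was at 72.0, 74.4 and 83.7 CPM in Control, 77.2, 75.3 and 78.1 CPM in AZ82 and 79.5, 75.3 and 70.0 CPM in CW069 libraries 1 to 3. Cdk4 was at 32.4, 31.7 and 33.3 CPM in Control, 28.9, 31.5 and 30.6 CPM in AZ82 and 34.8, 33.3 and 28.7 CPM in CW069 libraries 1 to 3. Cdk1, the kinase that drives entry into division, ranged from 28.1 to 36.4 CPM, and Cdk6 from 13.7 to 18.1 CPM. Per kb, Cdk2 stood at 31.8 ± 2.56 in Control and Cdk1 at 7.34 ± 0.710 CPM per kb, close to Cdk14 at 6.68 ± 1.35 CPM per kb.

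Kinases of transcription varied little within groups, with a median SD of 0.09 on the log2 scale against 0.15 over all genes tested. All 6 were still higher in Control 3 than in Control 1 and 2, as were 37.4% of all genes. Cdk13, which with Ccnk phosphorylates RNA polymerase II, was at 110, 118 and 127 CPM in Control, 116, 111 and 113 CPM in AZ82 and 107, 110 and 114 CPM in CW069 libraries 1 to 3. Cdk19, a kinase of the Mediator complex, was at 83.0, 81.6 and 88.5 CPM in Control, 76.2, 80.7 and 77.1 CPM in AZ82 and 81.7, 77.8 and 81.2 CPM in CW069 libraries 1 to 3. Cdk12 ran from 69.8 to 81.9 CPM, Cdk9 from 40.1 to 48.5, Cdk8 from 28.2 to 36.3 and Cdk7, which also activates other CDKs, from 22.0 to 26.3 CPM. Per kb of joined exon, the partner cyclins were not at the levels of their kinases. Ccnk was at 161 ± 3.61 CPM per kb in Control, above Cdk12 at 10.8 ± 0.804 and Cdk13 at 9.18 ± 0.669 CPM per kb. Without the scaling by length the gap was smaller, 455 CPM for Ccnk against 75.4 for Cdk12 and 118 for Cdk13. Ccnc, the partner of Cdk8 and Cdk19, was at 3.15 ± 0.424 CPM per kb, below Cdk8 at 10.6 ± 1.30 and Cdk19 at 14.5 ± 0.623 CPM per kb. Ccnh and Mnat1, which form a complex with Cdk7 (12.5 ± 0.655 CPM per kb), were at 7.45 ± 0.529 and 1.58 ± 0.330 CPM per kb.

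Of the remaining kinases, Cdk20, which acts in cilia, was at 39.8, 41.6 and 51.7 CPM in Control, 50.6, 39.0 and 47.6 CPM in AZ82 and 41.6, 42.9 and 43.3 CPM in CW069 libraries 1 to 3. Cdk10 was at 28.3, 31.6 and 33.8 CPM in Control, 36.0, 32.0 and 32.7 CPM in AZ82 and 32.7, 34.8 and 36.8 CPM in CW069 libraries 1 to 3. Cdk5, best known from neurons, ran from 20.1 to 28.3 CPM. Its activator Cdk5r1 was at 0.401 ± 0.0552 CPM per kb in Control, against 12.1 ± 0.420 CPM per kb for Cdk5.

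The PCTAIRE and PFTAIRE kinases, named after a sequence in the helix that binds the cyclin, were the class that varied most between libraries of a group. Their median SD within groups was 0.24 on the log2 scale, against 0.11 over all members and 0.15 over all genes tested. Cdk16, which is needed to form normal sperm and is activated by Ccny, was at 166, 171 and 103 CPM in Control 1 to 3, 149, 175 and 185 CPM in AZ82 1 to 3, and 158, 164 and 159 CPM in CW069 1 to 3. Cdk14, another partner of Ccny, was at 40.0, 43.5 and 29.0 CPM in Control, 39.9, 38.1 and 45.0 CPM in AZ82 and 44.5, 45.8 and 44.1 CPM in CW069 libraries 1 to 3. Cdk18 was at 16.8, 22.2 and 13.0 CPM in Control, 24.5, 21.6 and 26.8 CPM in AZ82 and 20.1, 19.8 and 20.9 CPM in CW069 libraries 1 to 3. Each of these 3 genes had its lowest value in Control 3. Their relatives did not: Cdk17 ran from 27.7 to 33.3 CPM with its lowest value in AZ82 2, and Cdk15, with 41 to 64 counts per library, from 2.63 to 4.42 CPM with its lowest value in Control 2. Ccny itself was at 84.1, 84.4 and 89.3 CPM in Control 1 to 3, highest of all 9 libraries in Control 3. Its relative Ccnyl1 was at 174, 165 and 158 CPM in Control 1 to 3, lowest of all 9 libraries in Control 3.

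Control 3 therefore split the members. Against the mean of Control 1 and 2, Cdk16 was lower by -0.71 on the log2 scale, Cdk18 by -0.57 and Cdk14 by -0.52, and Ccnd3 had a difference of -0.28. Most other members lay the other way. Control 3 was above both other Control libraries in 21 of 36 members (58.3%), against 37.4% of all genes tested, and it was the highest of all 9 libraries in 14 of 36 (38.9%), against 16.6% of all genes. These 14 included Ccna2 (0.30), Cdk1 (0.23), Cdk2 (0.19), Ccnb2 (0.13) and 5 of the 6 kinases of transcription. In the same library the elongating spermatid markers had a mean difference of -1.28 and the round spermatid markers one of -0.12, while the pachytene spermatocyte markers had 0.10 and the spermatogonial markers 0.00 on the log2 scale. The part of these cell type differences in the members' values was not tested.

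**Figure D2:**
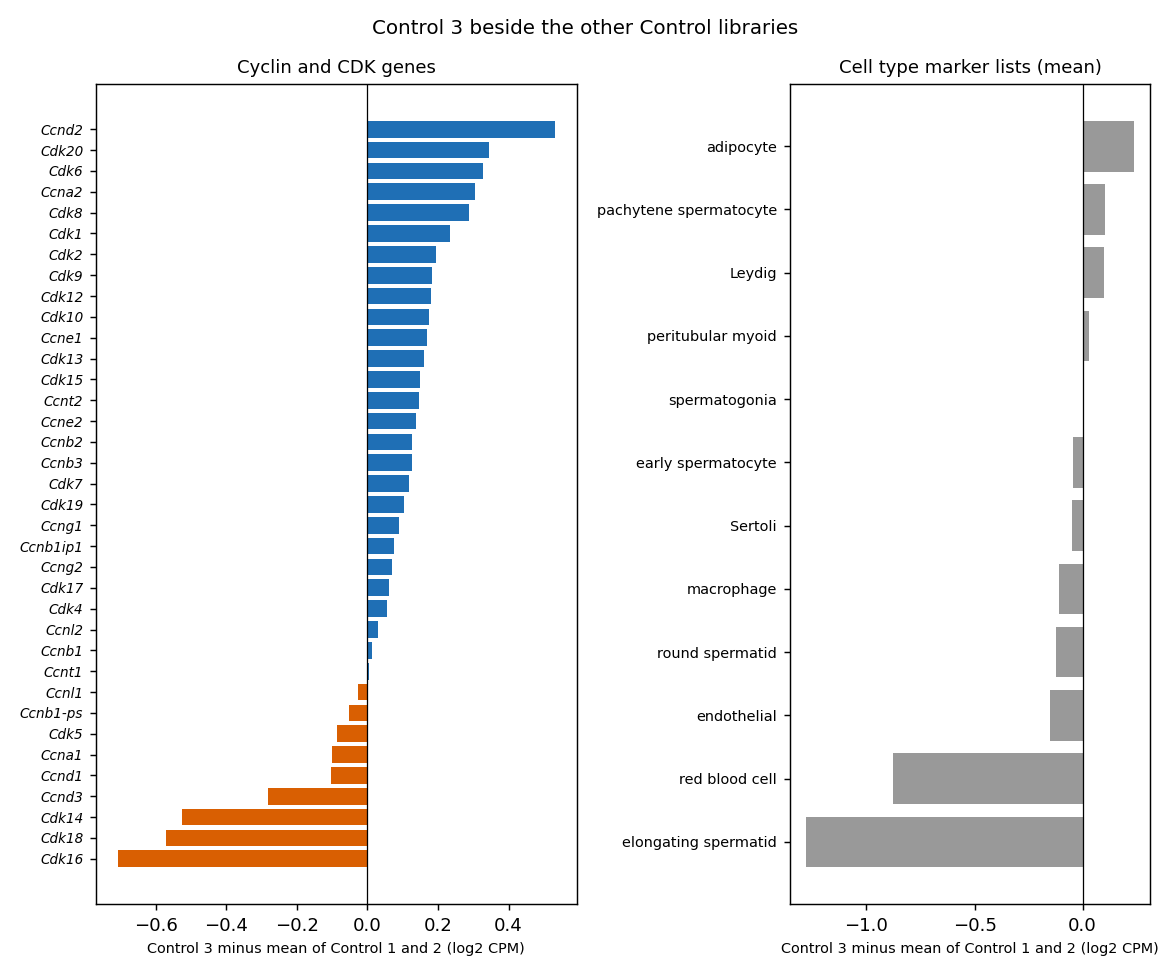
Difference of Control 3 from the mean of Control 1 and 2 in log2 CPM, as 1 bar per member (left, blue above 0 and orange below) and as the mean of each cell type marker list (right, a different axis scale). Cdk16, Cdk18 and Cdk14 reach -0.71, -0.57 and -0.52, beside -1.28 for the elongating spermatid markers.

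Promoters are shown for the 3 members that were lowest in Control 3 (Cdk16, Cdk18 and Cdk14) and, beside them, for Cdk1 and its B cyclin partners, which were picked for their role in division and after values were seen. Of those, Cdk1 and Ccnb2 were highest in Control 3, and Ccnb1 was not (0.014). RefSeq promoter sequences (GRCm38.p6, an earlier build than that of the counts) were found for 28 of the 36 members, 30 promoters in all, and were searched over the 250 bases before the start site on both strands. The elements were the CHR in its forms TTTGAA and TTTAAA, which represses cell cycle genes outside division, the CCAAT box, the E2F site as TTTCCCGC or TTTCGCGC, the CRE TGACGTCA and its core TGACGT, which overlaps the full CRE. The 170 bases before the start site are printed 5′ to 3′ on the gene's strand, in lower case with CHR and CCAAT matches on either strand in capitals. They cover chr10:69352913-69353082, minus strand (Cdk1), chr13:100786487-100786656, minus strand (Ccnb1), chr9:70421555-70421724, minus strand (Ccnb2), chrX:20687784-20687953, plus strand (the upstream start of Cdk16), chr1:132139686-132139855, minus strand (Cdk18) and chr5:5380252-5380421, minus strand (Cdk14).
Cdk1: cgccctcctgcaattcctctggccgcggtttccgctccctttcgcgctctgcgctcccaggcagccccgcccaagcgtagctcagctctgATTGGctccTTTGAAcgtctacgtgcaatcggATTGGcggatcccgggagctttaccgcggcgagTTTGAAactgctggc
Ccnb1: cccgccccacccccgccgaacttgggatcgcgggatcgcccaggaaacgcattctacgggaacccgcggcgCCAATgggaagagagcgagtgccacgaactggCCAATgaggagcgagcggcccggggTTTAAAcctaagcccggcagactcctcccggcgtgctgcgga
Ccnb2: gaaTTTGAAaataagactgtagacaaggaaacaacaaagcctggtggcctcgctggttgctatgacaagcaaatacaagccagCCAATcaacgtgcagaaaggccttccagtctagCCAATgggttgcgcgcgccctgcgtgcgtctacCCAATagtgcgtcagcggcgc
Cdk16: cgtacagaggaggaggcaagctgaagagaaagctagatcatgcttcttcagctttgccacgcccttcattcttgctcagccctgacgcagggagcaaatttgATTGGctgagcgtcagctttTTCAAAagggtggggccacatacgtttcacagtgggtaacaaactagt
Cdk18: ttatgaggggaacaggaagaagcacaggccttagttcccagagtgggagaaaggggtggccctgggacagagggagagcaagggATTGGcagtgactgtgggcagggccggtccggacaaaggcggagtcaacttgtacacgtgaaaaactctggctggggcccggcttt
Cdk14: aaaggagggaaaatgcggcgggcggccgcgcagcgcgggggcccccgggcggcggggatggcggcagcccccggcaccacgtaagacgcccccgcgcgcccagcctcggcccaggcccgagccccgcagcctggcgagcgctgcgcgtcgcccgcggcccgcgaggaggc
In this window Cdk1 held 2 CHR matches and 2 CCAAT boxes, and Ccnb1 and Ccnb2 held 2 and 3 CCAAT boxes beside a CHR match each. The upstream promoter of Cdk16 held a CHR match and a CCAAT box, Cdk18 a CCAAT box, and Cdk14 neither. The downstream promoter of Cdk16, not printed (chrX:20688256-20688425, plus strand), also held neither. TTTGAA was found in 3 of the 30 member promoters (10%), against 16.0% of all 32851 promoters, and TTTAAA in 4 of 30 (13.3%), against 12.1%. CCAAT was found in 13 of 30 (43.3%), against 33.8%, and the CRE core in 7 of 30 (23.3%), against 6.47%. The core was in the promoters of Ccnd3, Ccnl1, Ccnl2, Ccnt1, Cdk2, Cdk7 and Cdk10. The full CRE was in 1 promoter, that of Ccnl1 (3.33%, against 1.55%), and the E2F forms in that of Cdk2 (TTTCCCGC, 3.33% against 0.895%) and of Cdk1 (TTTCGCGC, 3.33% against 0.256%). A match describes letters, and no binding was measured here.

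AZ82 against Control asks how the cyclins and CDKs differed after the first inhibitor. edgeR called 0 of 36 members higher and 0 lower at an adjusted p under 0.05, where it called 0% of all 15834 genes, and the smallest adjusted p of a member was 0.554. At an unadjusted p under 0.05 there were 5 of 36 members (13.9%), against 8.84% of all genes. Of these 1 was higher and 4 were lower, against 4.04% and 4.79% of all genes. DESeq2 and limma-voom also called 0 members. The members with the largest difference were Cdk18, with a log2 fold change of 0.49 ± 0.16 (SE), Ccnd1 with -0.34 ± 0.14, Ccna2 with -0.34 ± 0.11 and Ccng1 with -0.33 ± 0.09. Ccnt2 completes the 5 with -0.16 ± 0.07. Without Control 3, in which it was lowest, Cdk18 had 0.31.

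No member passed the test, and more members had fold changes below 0 than above. For 24 of 36 members the fold change was below 0, with a median of -0.07 against -0.001 over all genes, and a median of -0.03 without Control 3. In 12 of 36 members (33.3%) every AZ82 library lay below every Control library, and in 0 members above, against 8.62% and 6.65% of all genes (15.3% in either direction). The 12 were Ccna2, Ccnb1ip1, Ccnd1, Ccng1, Ccng2, Ccnl2, Ccnt2, Cdk4, Cdk5, Cdk7, Cdk17 and Cdk19. Ccna2 stood at 11.3, 11.2 and 13.9 CPM in Control 1 to 3 against 9.39, 9.93 and 9.45 CPM in AZ82 1 to 3, with 11.2, 10.9 and 10.3 CPM in CW069 1 to 3. Ccng1 averaged 15.8 ± 0.999 CPM in Control and 12.5 ± 0.311 CPM after AZ82 (SD, n = 3 each), and its interval ran from -0.53 to -0.13 on the log2 scale. Cdk5 had -0.22 ± 0.10 and Ccnl2 -0.14 ± 0.07, while the other 6 lay between -0.27 (Ccng2) and -0.10 (Cdk4). Without Control 3 the count below Control was again 12, with 3 above, against 13.7% and 11.9% of all genes with that library left out. With another AZ82 or Control library left out the count below was 13 to 15 (against 12.5% to 15.2% of all genes). The count above was then 0 to 3 (against 10.6% to 13.2%). Fewer libraries overlap less often by construction. With RLE scaling of all 9 libraries 12 members were lower and 0 higher, against 7.79% and 7.23% of all genes. With library size scaling the counts were also 12 and 0, against 15.8% and 2.65%. The 15 spermatogonial markers summed to 567 to 596 CPM in the AZ82 libraries against 635 to 651 CPM in Control and 579 to 622 CPM after CW069. The pachytene spermatocyte and round spermatid lists lay the other way after AZ82. The 12 pachytene markers summed to 9449 to 9623 CPM against 9020 to 9252 CPM in Control. The 14 round spermatid markers summed to 3121 to 3318 CPM against 2770 to 3042 CPM. Early spermatocyte markers overlapped, at 2137 to 2317 CPM against 2126 to 2235 CPM in Control. Elongating spermatid markers did too, at 21006 to 24898 CPM against 9665 to 22813 CPM. Taken as the mean of centred log2 levels, the pachytene list also overlapped (-0.03 in AZ82 2, 0.03 in Control 3). The part of these lists in the members' values was not tested.

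The abundant members active in meiosis are given with their intervals. Ccna1 had a log2 fold change of 0.24 ± 0.11 after AZ82 (edgeR adjusted p = 0.569), though 0.16 without Control 1 and 0.37 without Control 2, and Ccnb2 and Cdk2 had intervals of -0.16 to 0.16 and -0.16 to 0.17. The interval stayed within a 1.5-fold change in either direction for 31 of 36 members. The 5 others were Ccna2, Ccnb1-ps, Ccnd1, Ccng2 and Cdk18, and for all 36 it stayed within 2-fold. The median interval of a member reached a factor of 1.16 to either side.

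**Figure D3:**
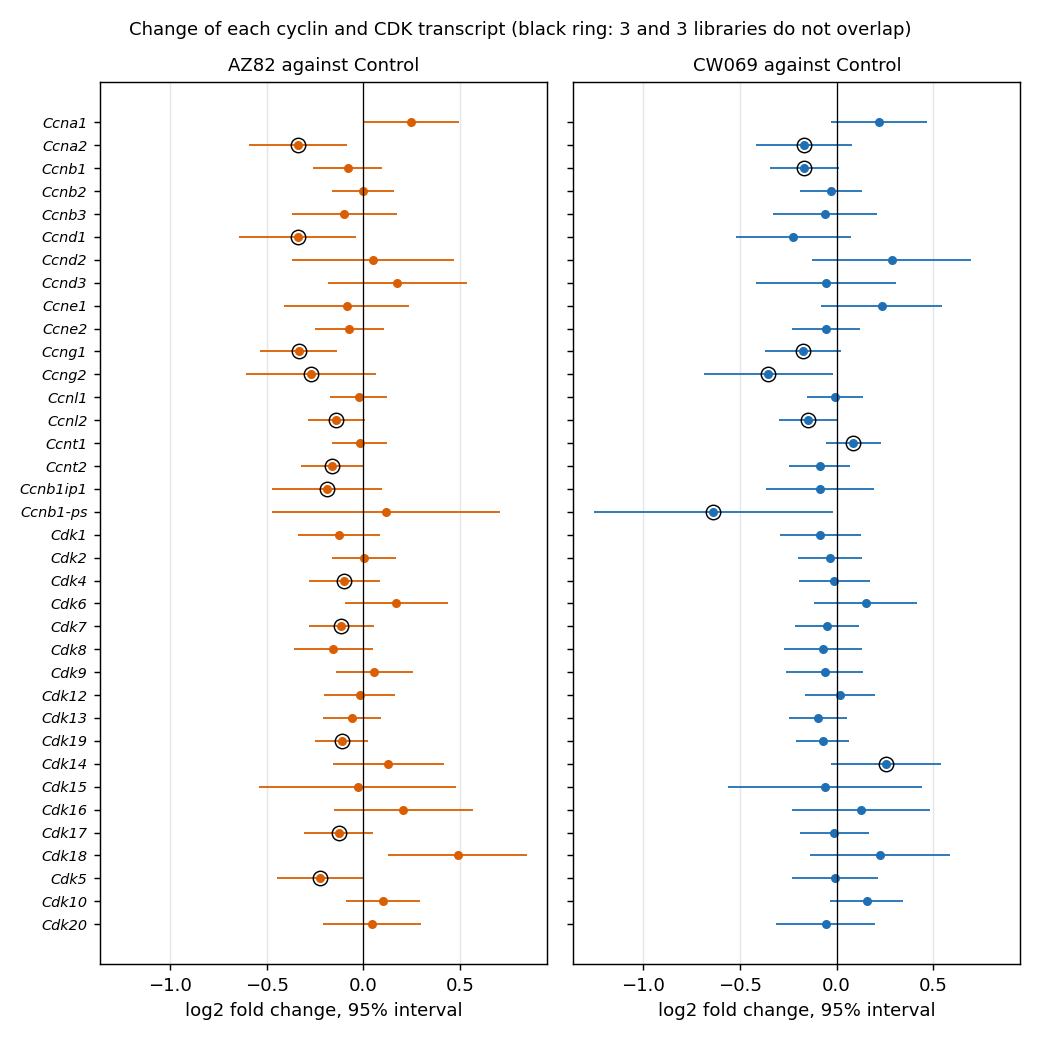
Log2 fold change of each member with its 95% interval from the edgeR fit, after AZ82 (left) and after CW069 (right), each against Control, ordered by role. Black rings mark members whose 3 treated and 3 Control libraries do not overlap: 12 after AZ82, all below 0, and 8 after CW069, 6 of them below 0.

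The second inhibitor, CW069, was set against the same Control libraries, so both comparisons share them. edgeR again called 0 members higher and 0 lower, against 0% of all genes, with a smallest adjusted p of 0.670 for a member. At an unadjusted p under 0.05 there were 2 of 36 members (5.56%), against 7.34% of all genes. Both were lower, Ccng2 with -0.35 ± 0.15 and the low-count pseudogene Ccnb1-ps with -0.64 ± 0.28, against 3.71% of all genes lower and 3.63% higher. This count was 0 without Control 1 or AZ82 2, 1 without AZ82 3 and 6 without Control 2. DESeq2 and limma-voom called 0 members. Ccng2 averaged 9.89 ± 1.05 CPM in Control and 7.77 ± 1.42 CPM after CW069, and without CW069 3, its lowest library, its fold change was -0.20.

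For 26 of 36 members the fold change after CW069 was below 0, with a median of -0.05 against -0.004 over all genes, and a median of -0.01 without Control 3. Groups did not overlap in 6 members that were lower, Ccna2, Ccnb1, Ccnb1-ps, Ccng1, Ccng2 and Ccnl2 (16.7%, against 7.24% of all genes), and in 2 that were higher, Ccnt1 and Cdk14 (against 6.13%; 13.4% of all genes in either direction). The count below was 10 without CW069 1 (against 11.9% of all genes). It was 7 to 9 without another CW069 or Control library (against 11.6% to 13.9%). The count above was 6 without Control 3 (against 12.7%) and 2 to 4 without another of these libraries (against 9.75% to 12.3%). With library size scaling 9 were lower and 0 higher, against 9.42% and 3.30% of all genes. With RLE scaling 5 were lower and 2 higher, against 6.55% and 6.80%. Ccng1 had -0.18 ± 0.09 after CW069, Ccnl2 -0.15 ± 0.07, or -0.10 without CW069 1, and Ccnb1 -0.17 ± 0.08. Ccna2 had -0.17 ± 0.11, but -0.06 without Control 3. Its groups were apart only narrowly, with CW069 1 at 11.162 CPM and Control 2 at 11.168 CPM. Of the 2 higher ones, Cdk14 had 0.26 ± 0.13, but 0.10 without Control 3, and Ccnt1 0.09 ± 0.06. Ccna1 had 0.22 ± 0.11, with 0.14 without Control 1 and 0.35 without Control 2. Cdk16 had 0.13 ± 0.16 after CW069 and 0.21 ± 0.16 after AZ82. Without Control 3 these became -0.074 and 0.0041. The interval after CW069 stayed within 1.5-fold for 33 of 36 members, all but Ccnb1-ps, Ccnd2 and Ccng2. The 10 Leydig cell markers summed to 1484 to 1539 CPM after CW069 against 1812 to 1949 CPM in Control, and the part of this in the members' values was not tested.

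**Figure D4:**
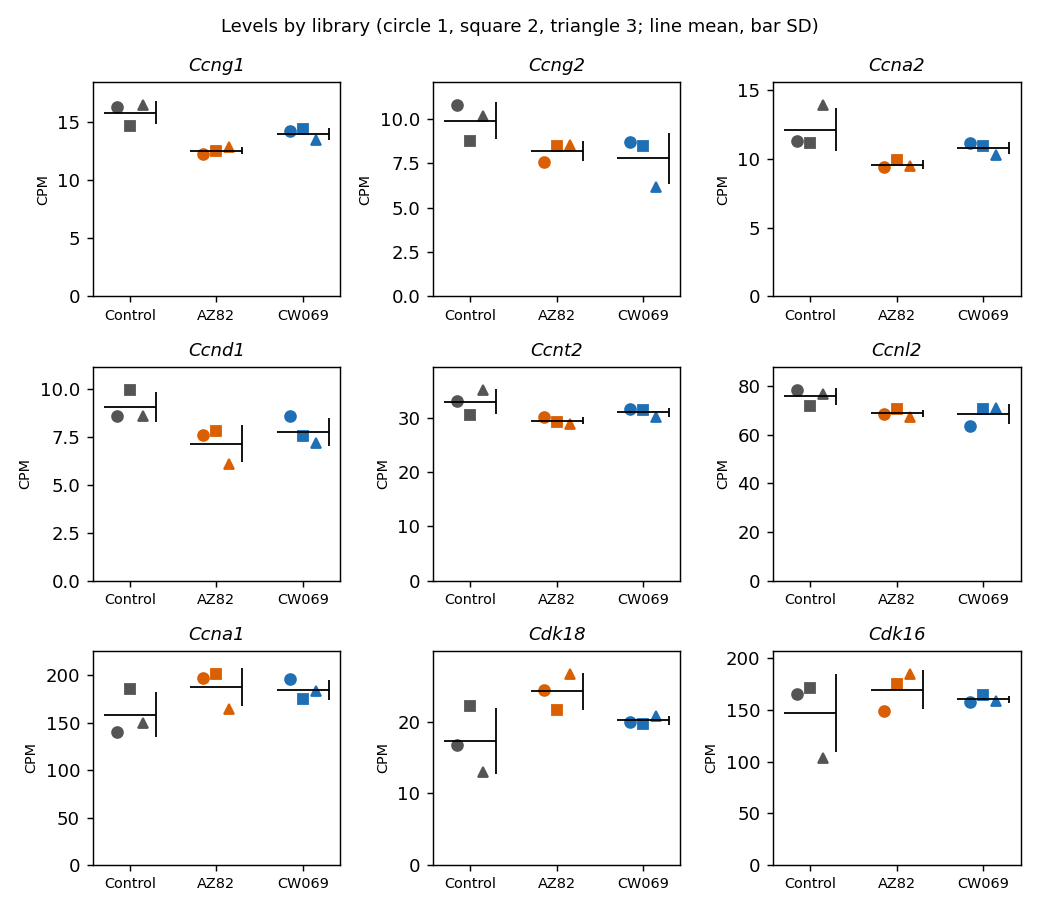
CPM of 9 members in each library, by group (circle, square and triangle for libraries 1 to 3, horizontal line for the mean, vertical bar for SD). Ccng1, Ccng2, Ccna2 and Ccnl2 lie lower in all 6 treated libraries than in Control, each by a narrow margin that is smallest for Ccng2 and Ccna2. Ccna1, Cdk18 and Cdk16 overlap between Control and treated libraries.

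The mean of both inhibitors was set against Control, which pools the 6 treated libraries. edgeR called 0 of 36 members, where it called 0.00632% of all genes (1 gene, which is no cyclin or CDK), and the smallest adjusted p of a member was 0.490, that of Ccng1. At an unadjusted p under 0.05 there were 7 members (19.4%), against 9.57% of all genes. Of these 2 were higher and 5 lower, against 4.31% and 5.27%. They were Ccng1 (-0.25 ± 0.08), Ccna2 (-0.25 ± 0.10), Cdk18 (0.36 ± 0.14), Ccnl2 (-0.14 ± 0.06), Ccnd1 (-0.28 ± 0.12), Ccng2 (-0.31 ± 0.13) and Ccna1 (0.23 ± 0.10). The count was 3 without Control 1 or CW069 3 and 4 without AZ82 3. Cdk18 had 0.18 without Control 3 and 0.58 without Control 2, and Ccna2 had -0.15 without Control 3. Ccna1 had 0.15 without Control 1 and 0.36 without Control 2. In 4 of 36 members (11.1%), Ccna2, Ccng1, Ccng2 and Ccnl2, all 6 treated libraries lay below all 3 Control libraries, against 2.92% of all genes, and in 0 members above, against 2.19% (5.11% in either direction). For Ccna2 the closest pair was CW069 1 at 11.162 CPM and Control 2 at 11.168 CPM. Without Control 1, Control 2 or CW069 1 the count below was 7, against 5.41%, 6.92% and 4.26% of all genes. It was 5 without Control 3 (against 5.94%) and 4 or 5 without another library (against 3.43% to 4.35%). The count above was 2 without Control 2 or Control 3 (against 6.62% and 5.36%), and otherwise 0 (against 2.53% to 4.25%). With RLE scaling 3 were lower (against 2.55%), and with library size scaling 6 (against 4.95%).

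CW069 was also set against AZ82, at doses that differ. edgeR called 0 members and 0% of all genes. At an unadjusted p under 0.05 were 2 members (5.56%, against 4.97% of all genes): Ccnb1-ps, with -0.75 ± 0.28, and Ccne1, with 0.32 ± 0.14, against 2.39% of all genes lower and 2.58% higher. In 3 members, Ccna2, Ccng1 and Cdk17, every CW069 library lay above every AZ82 library (against 5.52% of all genes), and in 1, Cdk18, below (against 5.80%; 11.3% in either direction). With an AZ82 or CW069 library left out these counts were 4 to 8 and 1 to 5, the highest without CW069 3 (against 13.3%) and AZ82 3 (against 10.6%). With a library left out the count at an unadjusted p under 0.05 ran from 0 to 3, the highest without CW069 3. It was 0 without AZ82 1, AZ82 2 or CW069 1, and 1 without Control 1, AZ82 3 or CW069 2.

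The genes that control cyclins and CDKs were read from 6 lists. Among the 8 CDK inhibitors, such as Cdkn1a and Cdkn2c, edgeR called 0 after either inhibitor, and 0 had an unadjusted p under 0.05; the median log2 fold change was 0.06 after AZ82 and -0.01 after CW069. Of the 17 kinases, phosphatases and small subunits that act on CDKs, 15 were tested and 0 called. An unadjusted p under 0.05 was found for 1 (6.67%) after AZ82 and 2 (13.3%) after CW069, against 8.84% and 7.34% of all genes. Cdc25c, a phosphatase that activates Cdk1, was at 17.3, 15.6 and 16.6 CPM in Control 1 to 3, 19.8, 20.8 and 18.5 CPM in AZ82 1 to 3, and 19.7, 18.2 and 21.2 CPM in CW069 1 to 3. All treated libraries were above Control, with log2 fold changes of 0.26 ± 0.09 after each inhibitor. Its relative Cdc25b lay below Control in all 6, at 3.59, 3.34 and 3.99 CPM in Control, 2.91, 3.07 and 3.32 CPM after AZ82 and 2.19, 2.33 and 2.50 CPM after CW069 (-0.63 ± 0.16 for CW069, edgeR adjusted p = 0.524). Cdc25b had only 32 to 60 counts per library. Of the 15 genes tested, all 6 treated libraries lay above Control in 1 and below in 2, against 2.19% and 2.92% of all genes.

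Of 20 RB and E2F genes, which switch S phase genes on and off, 0 were called. Tfdp2, an E2F partner, had -0.34 ± 0.11 after AZ82. At an unadjusted p under 0.05 there were 1 of 20 (5%) after AZ82 and 0 after CW069, against 8.84% and 7.34% of all genes. Of 24 genes of cyclin degradation 0 were called; Fzr1, an activator of the ligase that destroys B cyclins, had 0.15 ± 0.06, its subunit genes Anapc1 -0.15 ± 0.06 and Anapc11 0.27 ± 0.12 after AZ82. Fbxo43, an inhibitor of that ligase in meiosis, had -0.39 ± 0.13 after CW069. After AZ82 its mean lay the other way, 14.6 ± 1.64 CPM per kb against 12.7 ± 2.23 in Control and 9.70 ± 0.848 after CW069. Of the 24 degradation genes, 3 (12.5%) had an unadjusted p under 0.05 after AZ82 and 1 (4.17%) after CW069, against 8.84% and 7.34% of all genes. Of 16 proliferation genes 0 were called, 12 lay below 0 after AZ82 and 8 after CW069. Of all 15834 genes, 7961 and 8073 lay below 0. The replication helicase genes Mcm2 (-0.32 ± 0.11 after AZ82) and Mcm6 (-0.30 ± 0.10 after CW069) had an unadjusted p under 0.05. That was 1 of 16 (6.25%) after each inhibitor, below the 8.84% and 7.34% of all genes. Among the 18 cyclins and CDKs outside the name pattern, 0 were called and 0 had an unadjusted p under 0.05 after either inhibitor. Their medians were -0.05 after AZ82 and 0.02 after CW069.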

How the data were processed

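The deposited tables hold whole-number counts of reads per gene, with no normalization by the authors. Per the submitters' processing notes, Trimmomatic, HISAT2 and HTSeq were used with the build GRCm39; settings and strand handling are not given in the sources used here. The labels name a stranded mRNA kit. Each library's own deposited counts matched the joint table in all 19991 rows. Reads of near-identical genes, here Ccnb1 and Ccnb1-ps, can be misplaced.

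Genes were filtered with filterByExpr by group (15834 left) and TMM factors computed, before a fit in edgeR 4.0.16 (under R 4.3.3) of all 9 libraries, each group having its own mean. The quasi-likelihood F test, two-sided, was adjusted by Benjamini-Hochberg over all genes and called at 0.05. Intervals are 95%. Log2 levels used a prior count of 1. The pipeline was tested on simulated counts. Exon lengths are unions over GENCODE M21 basic transcripts (GRCm38), found for all 36 members. No 2 libraries of the same group agreed within sampling noise.

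Members, lists and tests were chosen with earlier results of these data known. Values in every library are given for members at an unadjusted p under 0.05 in any comparison. They are also given for the 2 members of each role with the highest mean CPM, not scaled by exon length. The order per kb can differ: over 9 libraries Cdk13 averaged 8.87 and Cdk9 24.9 CPM per kb. Regulators given with values had an unadjusted p under 0.05, except partner subunits of the kinases and Ccnyl1. Members whose groups did not overlap, and those that stood out in Control 3, were named after their values were seen. Alternatives were RLE or library size scaling, no filter or 1 CPM in 3 libraries, DESeq2 1.42.0, limma-voom (limma 3.58.1), the compared groups alone, a replicate block and each library left out. Same-numbered libraries did not deviate together (correlations -0.14 to 0.05).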

Additional observations from a re-analysis of the deposited data

How the results depend on the processing

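No member was called in any comparison under any alternative, edgeR, DESeq2 and limma-voom included. The number of all genes called moved. DESeq2 called 6 for AZ82, 28 for CW069, 13 for CW069 against AZ82 and 15 for the mean of both, against 0, 0, 0 and 1. Library size scaling called 1 for AZ82 and 1 for CW069, limma-voom 1 for AZ82, and the fit of the compared groups alone 8 for CW069 against AZ82. With a library left out the ranges were 0 to 4, 0 to 7, 0 to 4 and 0 to 6.

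Members at an unadjusted p under 0.05 numbered 9 for AZ82 with library size scaling, against 5. For CW069 they numbered 4 with library size scaling, 0 with DESeq2 and 1 with the compared groups alone, against 2. For CW069 against AZ82 they numbered 1 with no filter, with DESeq2 and with limma-voom, against 2, and for the mean of both 3 with DESeq2, against 7. With a library left out the ranges were 4 to 6, 0 to 6, 0 to 3 and 3 to 8. The share of all genes at that threshold was not computed for any alternative, left-out libraries included. These counts, here and above, therefore cannot be read as a result about the members. The replicate number as a block, which the labels do not say pairs libraries, gave 1 member for CW069 and 1 for CW069 against AZ82 and 0 genes called for the mean of both; it called no member.

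The median of the members was below 0 under every alternative for both inhibitors, but its size moved by over 1.5 times. It lay between -0.15 and -0.03 for AZ82 and between -0.10 and -0.01 for CW069. Library size scaling gave the lowest value of each; it placed the median of all genes at -0.08 and -0.05. Directions were followed only for the 10 members at an unadjusted p under 0.05 in any comparison and for Cdk14 and Cdk16. Other members, some with fold changes near 0, were not checked. Among those followed, directions reversed 3 times, given as ranges with a library left out. Ccnb1-ps for AZ82 ran from -0.13 (without AZ82 1) to 0.35. Cdk14 for AZ82 ran from -0.030 (without Control 3) to 0.25, and Cdk16 for CW069 from -0.074 (without Control 3) to 0.25. The cause was not tested. Depth limits Ccnb1-ps most, at 17 to 36 counts.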
